A study of Macaca mulatta and Mus musculus and Rattus norvegicus with 12 samples.

Results

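The 10 genes described here were 9 genes whose products are stored in, or make up much of, the neutrophil (CAMP, S100A8, S100A9, LTF, LCN2, MPO, ELANE, PRTN3 and CTSG) together with ORM1, which encodes alpha-1-acid glycoprotein. They were found by matching the symbol printed in each of the 4 deposited gene tables, among 75861 distinct symbols in all. All 10 had a row in the mouse table and all 10 in the rat table. In macaque 6 were found by printed symbol. A further 3, ORM1, LTF and PRTN3, had no row under their symbol, but each had a row named by a LOC number that the RefSeq gene table assigns to that gene, described there as alpha-1-acid glycoprotein 1-like, lactotransferrin-like and myeloblastin-like. ELANE had no row in macaque and is absent from the macaque results.

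The genes were selected on their read counts in these same libraries, and ORM1 on its difference between the sites in macaque.

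The study sequenced polyadenylated RNA of bone prepared to enrich osteocytes, which lie within the mineralized matrix, and set the calvaria (the skull vault) against the tibia (a limb bone) in mouse, rat and rhesus macaque. Mice were C57BL6 and labelled 4 months old, rats were Wistar and labelled 6 months old, and macaques were labelled 4 to 6 months old, whereas the study's methods give the macaque age in years; all were female by the methods, and no group carried a transgene or treatment. Mouse had 2 libraries of calvaria, M4 and M8, and 2 of tibia, M5 and M7, each pooled from several animals, rat had 1 pooled library of each site (R1 calvaria, R3 tibia), and macaque had 3 of each, 1 animal per library (calvaria G1, G3 and T1, tibia G2, G4 and T2). Rodent tibias were spun to clear marrow and rodent calvariae were cut away from the diploic spaces, while macaque bone was sawn, and no such spin is described for it. Rodents and macaques were on different sequencing lanes and were counted on different genomes and annotations, so species, lane and annotation cannot be told apart.

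Neutrophils are made in bone marrow, and they fill their granules in sequence as they mature. Primary (azurophil) granules form in promyelocytes and carry myeloperoxidase (MPO) and the serine proteases neutrophil elastase (ELANE), proteinase 3 (PRTN3) and cathepsin G (CTSG). Secondary (specific) granules form later, in myelocytes, and carry lactoferrin (LTF), cathelicidin (CAMP) and lipocalin 2 (LCN2). S100A8 and S100A9 pair as calprotectin, an abundant protein of the neutrophil cytosol, and ORM1 is a plasma acute-phase protein made mainly by the liver that developing neutrophils also store. In bulk bone RNA, fewer cells of a type and less RNA per cell cannot be told apart.

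In the mouse genome (GRCm38, the assembly also called mm10, with GENCODE vM21 gene models) the proteases Prtn3 (chr10:79874476-79883174, plus strand) and Elane (chr10:79886247-79888215, plus strand) lie side by side. Mpo lies at chr11:87793581-87804413 (plus strand) and Ctsg at chr14:56099881-56102574 (minus strand). Camp (chr9:109847379-109849617, minus strand) and Ltf (chr9:111019271-111042767, plus strand) share a chromosome, and Lcn2 lies at chr2:32384633-32388252 (minus strand). The calprotectin genes S100a8 (chr3:90668978-90670035, plus strand) and S100a9 (chr3:90692632-90695721, minus strand) are neighbours on opposite strands. Orm1 (chr4:63344560-63348163), Orm3 (chr4:63356162-63359511) and Orm2 (chr4:63362449-63365878) form a cluster on the plus strand. The counts cover the merged exons of each gene.

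Orm1 has a close copy in mouse, so the reads given to it depend on how well the copies can be told apart. The coding sequences of Orm1 and Orm2 were both 624 bases long and differed at 63 positions, an identity of 89.9%, and the longest stretch without a difference was 104 bases. The 60 coding bases in which they differed most, bases 138 to 197 counted from the start codon, are printed here from the GENCODE vM21 transcripts with the 17 differing positions in capitals.
Orm1: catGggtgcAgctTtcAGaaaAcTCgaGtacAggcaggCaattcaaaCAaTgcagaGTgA
Orm2: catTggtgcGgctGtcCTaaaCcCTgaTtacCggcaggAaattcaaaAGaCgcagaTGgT
Of the 676 windows of 100 bases in the Orm1 transcript, 47 (6.95%) occurred exactly in another gene's transcript, which was Orm2. Orm2 had 1 read in M4 and none in the other 3 mouse libraries, and Orm3 had 1, 1, 0 and 1 read in M4, M8, M5 and M7, against 262, 219, 170 and 122 reads for Orm1. Nearly all mouse reads that were counted in the cluster were therefore on Orm1. What became of reads from the windows shared with Orm2 was not tested. For Mpo, 171 of 2651 windows (6.45%) also occurred, on the other strand, in the antisense gene Gm11505, and since reads were counted without strand the 2 cannot be told apart there; Gm11505 had no row of its own in the mouse table. None of the windows of the other 8 mouse members was found in another gene.

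Reads counted on named genes ranged from 13934813 to 16826535 per mouse library, were 14255423 and 12233256 in rat, and ranged from 7951585 to 10342459 in macaque. Levels are given as counts per 1000000 reads (CPM), scaled with TMM factors in mouse and macaque and by library size in rat. The osteocyte label was checked against 8 markers. All 8 were detected in mouse and macaque and 6 in rat, and their summed level was 2095 and 1248 CPM in the mouse calvariae (M4, M8) against 7935 and 10726 CPM in the tibias (M5, M7), and from 5179 to 6033 CPM in macaque calvaria against 8113 to 17842 CPM in macaque tibia. In rat the sum was 544 CPM in calvaria and 7274 CPM in tibia, and the summed level of 9 skeletal muscle genes was 8.91 CPM in calvaria and 1111 CPM in tibia. The mouse muscle sum was 2696 and 1660 CPM in calvaria M4 and M8 and 431 and 2272 CPM in tibia M5 and M7. In macaque it was at most 11.3 CPM in any library. Mouse calvariae M4 and M8 differed from each other for many of the genes described below, and the members' mouse results are given with and without M8. M4 was the high library in other lists. The osteoblast sum was 51701 CPM in M4, 23280 in M8, 32662 in M5 and 23307 in M7. The osteoclast sum was 2518, 1100, 1370 and 1220 CPM in the same order. With 2 calvaria libraries, neither can be called the unusual one.

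The members differed among the libraries in the share of gene reads they took. Together they took 9.19% of gene reads in M4 and 11.6% in M8, against 5.96% in M5 and 6.48% in M7. In rat they took 8.15% of the calvaria reads and 4.41% of the tibia reads. In macaque the share was 3.76%, 5.12% and 5.53% in calvaria G1, G3 and T1, against 0.843%, 0.812% and 1.46% in tibia G2, G4 and T2. In each species every calvaria library lay above every tibia library. In the rodents most of this was calprotectin, with S100A8 and S100A9 taking 8.23% and 9.90% of reads in M4 and M8 and 5.00% and 5.57% in M5 and M7, whereas in macaque CAMP alone took 1.84% to 2.70% of calvaria reads and 0.390% to 0.739% of tibia reads.

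Per kilobase of covered exon, the order of the members differed among the species. In mouse calvaria the mean level fell from S100A9 (109894 CPM per kilobase) and S100A8 (91883) through CAMP (9766), LCN2 (2121), LTF (1227), MPO (735) and ELANE (591) to CTSG (246), PRTN3 (188) and, lowest, ORM1 (21.8). Of these neighbours, S100A9 and S100A8, LCN2 and LTF, LTF and MPO, MPO and ELANE, and CTSG and PRTN3 overlapped between the calvaria libraries. Within each library the order held for all of these except CTSG and PRTN3, which changed places in M8. In rat calvaria S100A9 was at 102580 CPM per kilobase, S100A8 at 30451 and CAMP at 8348, and the primary granule genes lay between 23.2 (PRTN3) and 447 (ELANE). In macaque calvaria S100A8 (50373) and CAMP (44358) stood at the top and overlapped, followed at a distance by S100A9 (975), CTSG (895), ORM1 (744), MPO (550) and LTF (492), each of which overlapped the next. Within every macaque calvaria library S100A8 lay above CAMP and S100A9 above CTSG, while the order of CTSG, ORM1, MPO and LTF changed among the libraries. ORM1, the lowest member in mouse, was thus at the level of the granule genes in macaque. No macaque row was found for ORM2 or ORM3, and whether reads of other copies fell on the macaque ORM1 row was not tested. Each annotation sets its own gene models, so levels between species are given side by side without a test.

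**Figure D1:**
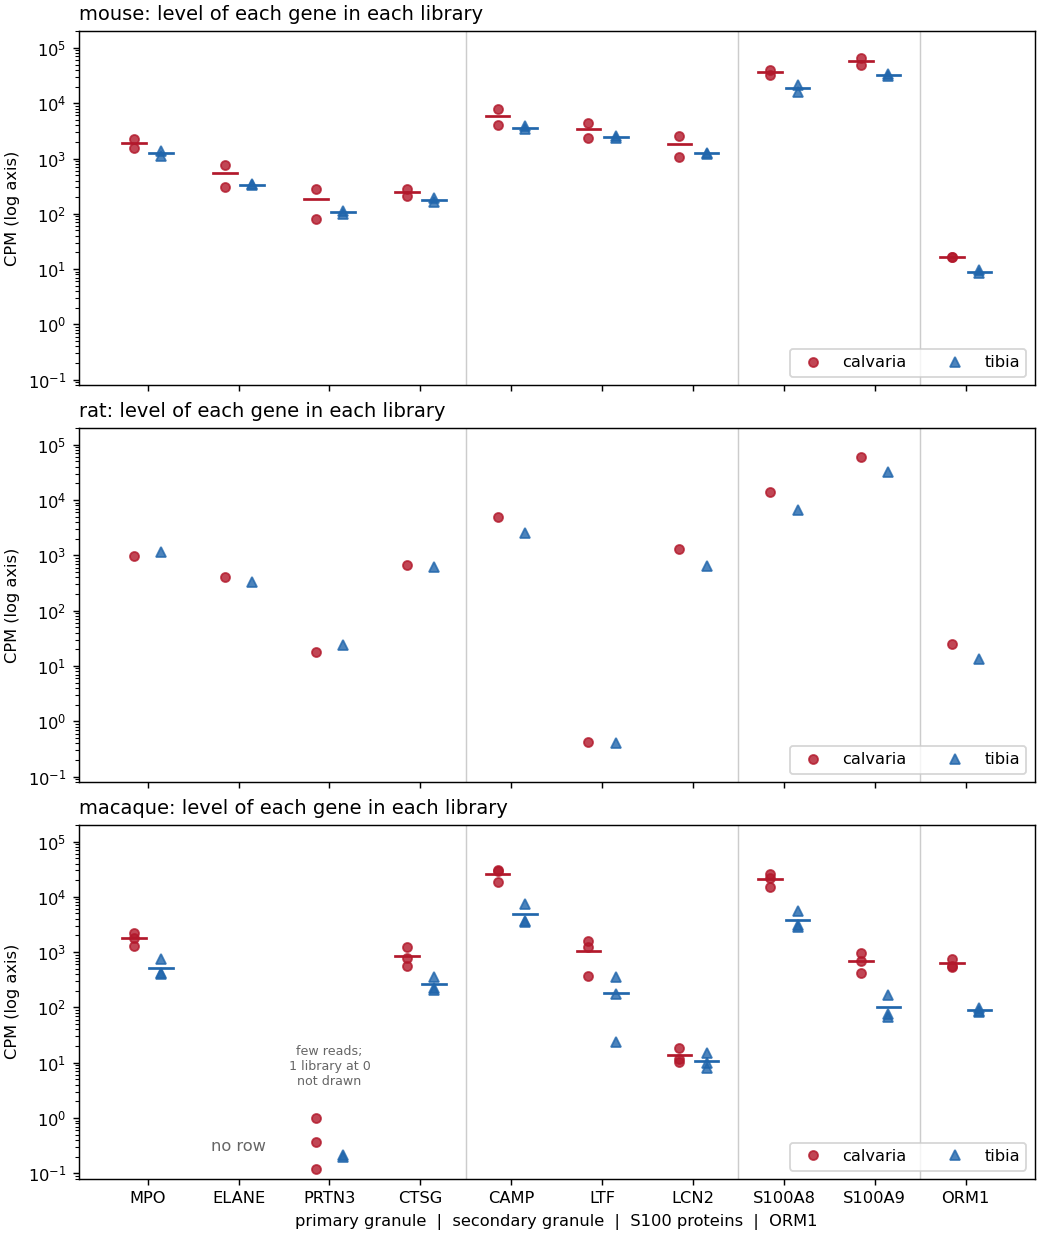
Level of each gene in each library, in CPM on a log axis, with mouse at the top, rat in the middle and macaque at the bottom; circles are calvaria libraries, triangles tibia libraries, and short lines the mean of a site where it had more than 1 library (none for macaque PRTN3, whose tibia G4 had no reads and is not drawn). In macaque every calvaria circle of MPO, CTSG, CAMP, LTF, S100A8, S100A9 and ORM1 lies above every tibia triangle, whereas the mouse sites lie close together or overlap for ELANE, PRTN3, LTF and LCN2.

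The macaque comparison asked how the same bones of individual animals differed, and there the members of every class that could be read were higher in calvaria. Genes were called with the study's thresholds (adjusted p under 0.2, change over 1.1-fold) in edgeR's quasi-likelihood fit over 18894 genes. The study also dropped genes lacking reads in some sample, a rule applied here only as an alternative. The counts of called genes are therefore not set against the study's own. Of the 9 members with a row, 7 were called, all higher in calvaria, and the same 7 had every calvaria library above every tibia library. For comparison, 19.7% of all genes tested were called (10.3% higher in calvaria and 9.43% higher in tibia). Of all genes tested, 24.9% had sites that did not overlap, 12.8% with calvaria higher and 12.1% with tibia higher. The members were proposed with this contrast in view and ORM1 was singled out by its macaque result, so nothing is read from this count and no p-value is given for a member.

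Of the primary granule genes in macaque, MPO, which turns hydrogen peroxide into hypochlorous acid, was at 1297, 1773 and 2257 CPM in calvaria G1, G3 and T1 and at 416, 400.2 and 741 CPM in tibia G2, G4 and T2. The lowest calvaria library was 1.75 times the highest tibia library, T2. The log2 fold change of calvaria over tibia was 1.77 (SE 0.22, n = 3 libraries a site), a 3.42-fold difference. CTSG, a protease with chymotrypsin-like cleavage, was at 552, 768 and 1218 CPM in calvaria and 227, 203 and 356 CPM in tibia, with a log2 fold change of 1.69 (SE 0.23). Both genes were lowest in calvaria G1 and highest in calvaria T1, and both were highest among the tibias in T2. PRTN3 had 1, 8 and 3 reads in the calvariae and 2, 0 and 2 reads in the tibias, too few for a comparison. A count of 0 allows up to 3 reads, and this covers counting error only.

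Of the secondary granule genes in macaque, CAMP and LTF showed larger differences than MPO and CTSG, with a wide standard error for LTF. The classes were not tested against each other. Among the other granule genes given below, medians were 1.94 for the specific and 1.48 for the azurophil list. Single genes did not all follow that order, with azurophil CST7 at 1.98 and specific CRISP3 at 1.22. CAMP, the precursor of a cathelicidin peptide that disrupts bacterial membranes, was at 18520.2, 29255 and 30206 CPM in calvaria and 3471, 3721 and 7424 CPM in tibia. Its lowest calvaria library was 2.49 times its highest tibia library, and the log2 fold change was 2.42 (SE 0.25), or 5.34-fold. LTF, an iron-binding protein, was the most variable member, at 1217, 370 and 1611 CPM in calvaria and 178, 24.0 and 349 CPM in tibia. Its log2 fold change was 2.54 (SE 0.44), but calvaria G3 was only 1.06 times tibia T2. The value was 2.01 without G4 and 3.40 without T2, the lowest and highest with 1 library left out. The libraries G3 and G4 were low in LTF and not in CAMP, with 79.1 and 155 CAMP reads per LTF read, against 15.2 to 21.3 in the other 4 libraries. LCN2 could not be read in macaque. The 2 rows that carry this symbol are described in the table as prostaglandin-H2 D-isomerase-like and epididymal-specific lipocalin-12-like, other members of the lipocalin family. Their summed level was 18.6, 10.5 and 11.6 CPM in calvaria and 15.1, 9.70 and 8.06 CPM in tibia, with overlap.

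The calprotectin subunits showed differences of similar size in macaque. S100A8 was at 15337, 21809 and 25720.3 CPM in calvaria and 3050.2, 2859.5 and 5529 CPM in tibia, a log2 fold change of 2.46 (SE 0.24) or 5.50-fold. S100A9 was at 416, 687 and 957 CPM in calvaria and 75.45, 66.6 and 166 CPM in tibia, a log2 fold change of 2.74 (SE 0.27) or 6.67-fold. For both, the lowest calvaria library was G1 and the highest tibia library T2, and the first was 2.77 times the second for S100A8. Macaque libraries held 0.0233 to 0.0372 S100A9 reads per S100A8 read, against 1.51 to 1.97 in mouse and 4.26 and 4.97 in rat. Each species was counted on its own gene models, and their part in this gap was not tested.

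ORM1, singled out for its site difference in macaque, was at 566, 766 and 545 CPM in calvaria and 82.4, 95.8 and 87.7 CPM in tibia. The lowest calvaria library was 5.69 times the highest tibia library, and the log2 fold change was 2.82 (SE 0.20), or 7.06-fold. Unlike MPO, CTSG, CAMP, LTF, S100A8 and S100A9, it was lowest in calvaria T1, and tibia T2 did not stand above the other tibias. Leaving out each library in turn moved the log2 fold change between 2.65 and 2.91, and the fit of the 4 G libraries alone gave 2.92. The value of ORM1 lay within error of that of S100A9, which ran from 2.42 to 3.28 with 1 library left out. Counting within each library, ORM1 reads per 1000 CAMP reads were 30.6, 26.2 and 18.1 in calvaria and 23.8, 25.7 and 11.8 in tibia. The ranges of the sites overlapped, and the T libraries were the low ones. Which bones came from the same animal is not named. With G1 assumed paired with G2, G3 with G4 and T1 with T2, calvaria was higher in each pair, though barely in G3.

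**Figure D2:**
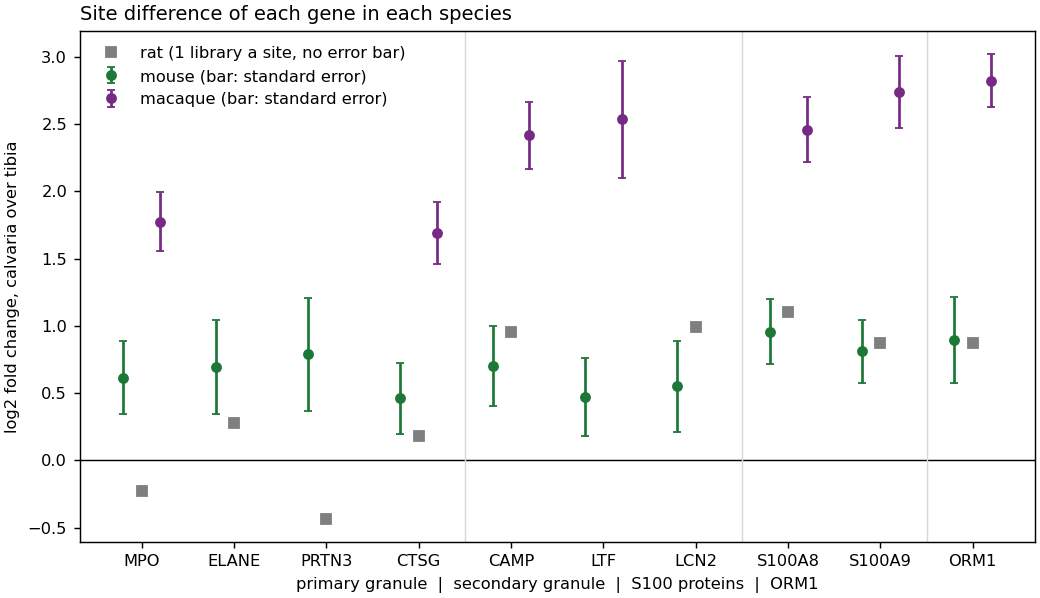
Log2 fold change of calvaria over tibia for each gene (vertical axis), with mouse in green and macaque in purple, bars showing the standard error of the fit, and rat as grey squares without error bars because it had 1 library a site. Macaque PRTN3, macaque LCN2 and rat LTF are not drawn, for few reads or an uncertain row. Macaque values run from 1.69 for CTSG to 2.82 for ORM1 and mouse values from 0.46 to 0.96, while the rat squares of the primary granule genes lie near 0 and those of the others near 1. Rat values are scaled by library size, whereas mouse and macaque values use TMM factors.

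In mouse the same genes leaned towards calvaria by smaller amounts, and calvaria M8 carried much of the difference. All 10 log2 fold changes were above 0, between 0.46 and 0.96, with a median of 0.70 against 0.05 over the 14527 genes with a mean of at least 1 CPM. Of the 10 members, 2 were called, S100A8 and S100A9, both higher in calvaria, against 2.28% of all 22339 genes tested (0.712% higher in calvaria and 1.57% higher in tibia). For 6 members both calvaria libraries lay above both tibia libraries, against 17.3% of all genes tested (35.7% did not overlap in either direction, and 18.4% were higher in tibia). As in macaque, these counts are a description of genes chosen with the contrast in view.

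Among the mouse primary granule genes, MPO was at 1535 and 2284 CPM in calvaria M4 and M8 and at 1391 and 1104 CPM in tibia M5 and M7, a log2 fold change of 0.61 (SE 0.27, n = 2 libraries a site). CTSG was at 211 and 283 CPM in calvaria and 192 and 167 CPM in tibia, a log2 fold change of 0.46 (SE 0.26). In both genes the sites did not overlap, but M4 was 1.23 times the tibia mean for MPO and 1.18 times for CTSG, and without M8 the log2 fold changes were 0.29 and 0.23. ELANE, a protease that cuts elastin and bacterial proteins, was at 311 and 777 CPM in calvaria and 332 and 340 CPM in tibia. PRTN3, its neighbour in the genome, was at 81.6 and 284 CPM in calvaria and 99.7 and 112 CPM in tibia. Both overlapped between the sites, with M4 below both tibias and M8 above both, and without M8 their log2 fold changes turned to -0.11 and -0.38.

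The mouse secondary granule genes showed the same split between the calvaria libraries. CAMP was at 3987 and 7713 CPM in calvaria and 3384 and 3796 CPM in tibia, a log2 fold change of 0.70 (SE 0.30), and M4 exceeded the higher tibia by a factor of 1.05. Without M8 it was 0.15. LTF was at 2356 and 4376 CPM in calvaria and 2501 and 2363 CPM in tibia. LCN2, which binds bacterial siderophores, was at 1064 and 2554 CPM in calvaria and 1227 and 1245 CPM in tibia. LTF and LCN2 overlapped, and without M8 their log2 fold changes turned to -0.051 and -0.22.

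Calprotectin and ORM1 stood clear of the tibias in both calvaria libraries. S100A8 was at 32718 and 39318 CPM in calvaria and 16029.8 and 21109 CPM in tibia, a log2 fold change of 0.96 (SE 0.24) or 1.94-fold. S100A9 was at 49319 and 65850.0 CPM in calvaria and 31519.8 and 34196 CPM in tibia, a log2 fold change of 0.81 (SE 0.23) or 1.75-fold. ORM1 was at 16.8 and 16.7 CPM in calvaria and 9.61 and 8.35 CPM in tibia, a log2 fold change of 0.90 (SE 0.32) or 1.86-fold. M4 was 1.76 times the tibia mean for S100A8, 1.501 times for S100A9 and 1.87 times for ORM1, whereas for the 7 granule genes it lay between 0.771 and 1.23 times. M8 lay between 1.58 and 2.69 times the tibia mean for all 10. Without M8 the log2 fold changes were 0.81 for S100A8, 0.58 for S100A9 and 0.89 for ORM1. A fit without 1 mouse library leaves 1 library at a site, so only log2 fold changes are given for it. The number of members called went from 2 to 0 with a replicate block under either assumed pairing of the bones. It was 0 too in the exact test and under the stricter filters on low counts.

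**Figure D3:**
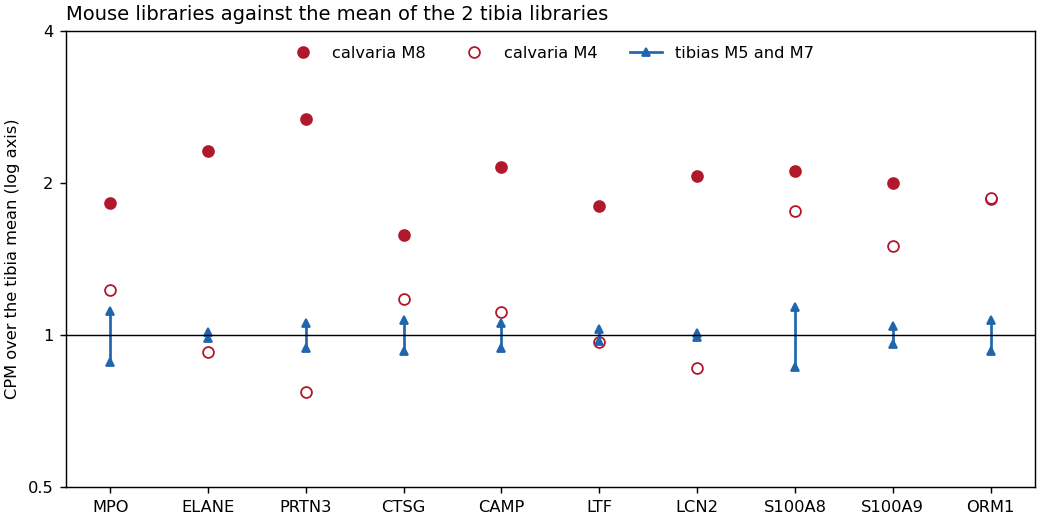
CPM of each gene in the 4 mouse libraries divided by the mean of the 2 tibia libraries, on a log axis; filled circles are calvaria M8, open circles calvaria M4, and joined triangles the tibias M5 and M7. M8 lies above the tibias for every gene, and M4 lies clear of them, at 1.76 and 1.87 times the tibia mean for S100A8 and ORM1 and 1.501 times for S100A9.

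In rat, with 1 pooled library a site and no replicate check, the primary granule genes had lower log2 ratios than the other members with enough reads. The secondary class was read from CAMP and LCN2 alone, because LTF had few reads. Of 10 members, none passed the study's threshold of a log2 ratio of 2 in size (9.69% of the 19234 genes with reads did, 1.55% higher in calvaria and 8.14% in tibia). At a log2 ratio of 1, 1 member, S100A8, passed, against 31.6% of genes (6.8% higher in calvaria and 24.8% in tibia). MPO was at 969 CPM in calvaria and 1132 CPM in tibia, CTSG at 682 and 603 CPM, ELANE at 405 and 333 CPM, and PRTN3 at 17.7 and 24.0 CPM. The log2 ratios of these primary granule genes lay between -0.43 and 0.28. CAMP was at 4892 and 2520.3 CPM (1.94-fold), LCN2 at 1302 and 653 CPM (1.99-fold), S100A8 at 13916 and 6497 CPM (2.14-fold), S100A9 at 59291 and 32309 CPM (1.84-fold) and ORM1 at 24.6 and 13.4 CPM (1.83-fold). All 5 were higher in calvaria by similar factors. The log2 ratio of ORM1 was 0.87, and its 95% counting interval was 0.61 to 1.15, from 351 and 164 reads, and it covers counting error only. LTF had 6 reads in calvaria and 5 in tibia, although CAMP of the same granule had 69737 and 30832, and its interval, -1.93 to 2.09, shows no direction. TMM factors raised every rat value, moved the median of 13445 genes from -0.28 to 0.01, and turned MPO from -0.22 to 0.06. With them ELANE was at 0.57, CTSG at 0.47 and PRTN3 at -0.14, against 1.24 for CAMP and 1.28 for LCN2. On that scale ELANE and CTSG thus lay towards calvaria.

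Ratios of a secondary to a primary granule gene were taken within each library, where depth and scaling cancel. In macaque there were 14.3, 16.5 and 13.4 CAMP reads per MPO read in calvaria G1, G3 and T1, against 8.35, 9.30 and 10.0 in tibia G2, G4 and T2, without overlap. In rat the ratio was 5.05 in calvaria and 2.23 in tibia. In mouse it was 2.60 and 3.38 in calvaria and 2.43 and 3.44 in tibia, with overlap. In macaque, LTF reads per MPO read were 0.938, 0.209 and 0.714 in calvaria G1, G3 and T1. They were 0.429, 0.0599 and 0.471 in tibia G2, G4 and T2. The ranges overlapped, so separation of all libraries held for CAMP and not for LTF. The bones of an animal were paired, but the pairs are not named. With G1 assumed paired with G2, G3 with G4 and T1 with T2, both CAMP and LTF reads per MPO read were higher in calvaria in each pair. In mouse LTF reads per MPO read were 1.53 in M4 and 1.92 in M8, against 1.80 in M5 and 2.14 in M7. Within the primary class, CTSG reads per MPO read overlapped between macaque sites, at 0.425 to 0.540 in calvaria and 0.480 to 0.547 in tibia. ELANE reads per PRTN3 read were 3.82 in M4 and 2.73 in M8, against 3.33 in M5 and 3.04 in M7.

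**Figure D4:**
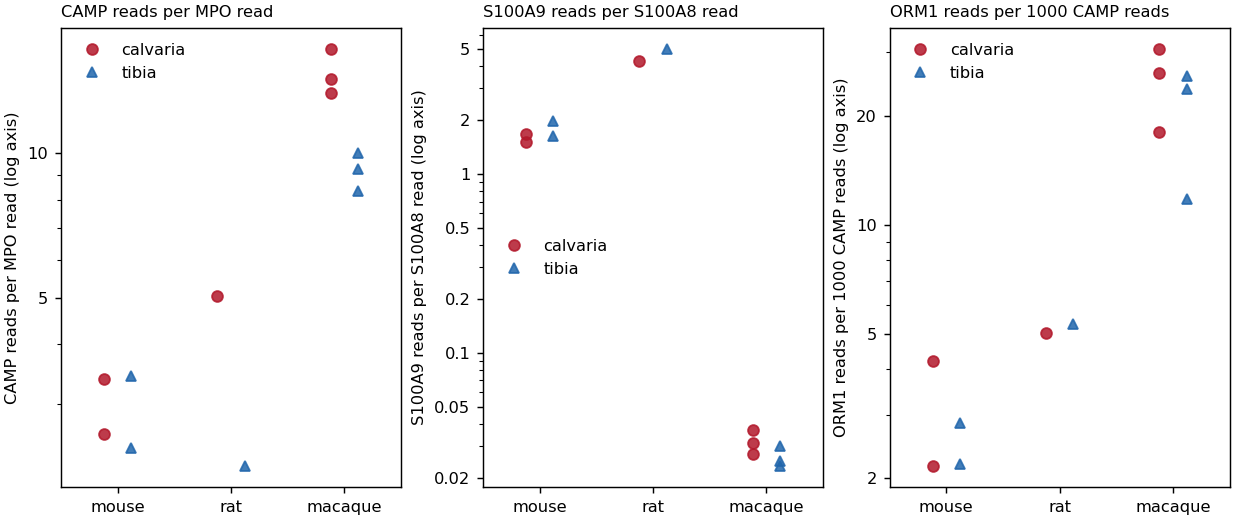
Ratios of reads within each library for the 3 species, on log axes, with calvaria as circles and tibia as triangles. CAMP reads per MPO read (left) separate the macaque sites, at 13.4 to 16.5 against 8.35 to 10.0. S100A9 reads per S100A8 read (middle) lie below 0.04 in macaque and above 1.5 in the rodents, and ORM1 reads per 1000 CAMP reads (right) overlap between the sites in macaque. The species were counted on different gene models.

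Genes outside the 10 gave a wider view of the neutrophil series. These lists were chosen with earlier results of the same contrast known and share all libraries with the members, so their counts and p-values are no independent evidence, and the p-values measure the spread between these few libraries. In macaque 23 of the 32 genes tested in 4 further neutrophil lists were called, all higher in calvaria, with a median log2 fold change of 1.85 against -0.01 over the 12305 genes with a mean of at least 1 CPM. Of all macaque genes tested, 19.7% were called, and 10.3% were called higher in calvaria. The 23 calls came from all 4 lists. Among azurophil genes CST7, a cystatin, rose by 1.98 on the log2 scale (SE 0.25, edgeR's adjusted p = 1.75e-07), while MS4A3, CTSC (the protease that activates the granule serine proteases) and BPI were also called. Of 9 other specific granule genes 7 were called, among them ANXA3, TCN1 (a vitamin B12 carrier), CD177 and CRISP3. TCN1 was at 22.2 ± 1.92 CPM in calvaria and 3.94 ± 2.39 CPM in tibia (SD, n = 3), a log2 fold change of 2.48 (adjusted p = 1.06e-06, edgeR). In the gelatinase granule list 5 of 7 were called, CFP, FCN1, ITGAM, SLC11A1 and MMP9. Of 10 genes of mature neutrophils 7 were called. S100A12, a further S100 protein of neutrophils, was at 136 ± 25.4 CPM in calvaria and 36.2 ± 5.50 CPM in tibia (adjusted p = 3.89e-09, edgeR), and CSF3R (the receptor for G-CSF) and FPR2 were among the others called. The receptors CXCR1 and CXCR2, by contrast, had a mean of at most 0.161 CPM at either site.

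Transcription factors of granulocyte development moved in part. Of 10, 6 were called in macaque, all higher in calvaria, where 10.3% of all genes tested were called higher in calvaria. CEBPE, which drives the secondary granule programme, had a log2 fold change of 2.11 (SE 0.45, adjusted p = 0.000878, edgeR), MYB of 1.52, CEBPA of 1.03 and KLF5 of 0.84. GFI1 was at 129 ± 27.6 CPM in calvaria and 126 ± 19.8 CPM in tibia and was not called (log2 fold change 0.03, adjusted p = 0.952, edgeR). Of the 12 other acute-phase genes tested, 3 were called, all higher in calvaria, a share near the 19.7% of all macaque genes called. These were SERPINA1 (an inhibitor of neutrophil elastase, log2 fold change 1.55), FGB (2.76) and CP (1.44), with adjusted p between 8.95e-05 and 0.000655 (edgeR). The liver gene ALB had a mean of at most 0.065 CPM at either site in macaque.

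In mouse 1 of 34 genes of the 4 neutrophil lists was called, ARG1, and it was higher in tibia. It had 3 and 0 reads in the calvariae and 197 and 15 in the tibias, so tibia M5 set the difference. Of the 34, 26 had a log2 fold change above 0, with a median of 0.49. Both calvariae lay above both tibias for 10 and below both for 3, where 17.3% and 18.4% of all genes did so. The most abundant showed the split of the members. NGP, a rodent granule protein, was at 1570.1 and 4059 CPM in M4 and M8 and 1654 and 1767 CPM in M5 and M7, and RETNLG, a resistin-like gene of mature neutrophils, had a log2 fold change of 0.83 (SE 0.28, adjusted p = 0.313, edgeR). No granulopoiesis factor was called in mouse. In rat 24 of 29 genes of these lists had a log2 ratio above 0, with a median of 0.66.

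Whether a gene's site difference was larger in macaque than in mouse was tested as an interaction over 11565 shared symbols, of which 4.89% were called at an adjusted p under 0.2. Of 125 genes in the fixed lists outside the members, 20 were called, all with the more positive value in macaque, among them the neutrophil genes CST7, ITGAM, ABCA13, ANXA3, CD177 and CRISP3. CRISP3 had no reads in either mouse calvaria. For ANXA3, the macaque log2 fold change exceeded that of mouse by 1.53 (SE 0.45, adjusted p = 0.161, edgeR). For the members the same difference is given without a p-value. It was 2.09 (SE 1.102) for LTF, the least certain, 1.94 (SE 0.29) for ORM1, 1.95 (SE 0.59) for S100A9, 1.73 (SE 0.54) for CAMP, 1.52 (SE 0.47) for S100A8, 1.25 (SE 0.46) for CTSG and 1.18 (SE 0.45) for MPO.

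Markers of several, but not all, other blood lineages were also higher in macaque calvaria, and their part in the site differences was not tested. For comparison, 19.7% of all macaque genes tested were called, and 10.3% were called higher in calvaria. In macaque all 10 erythroid genes tested were called higher in calvaria (median log2 fold change 2.33), and their summed level was 25907 to 37539 CPM in calvaria against 6944 to 10029 CPM in tibia. RHAG, a glycoprotein of the red cell membrane, rose by 2.44 on the log2 scale (adjusted p = 2.8e-11, edgeR). Of 8 megakaryocyte and platelet genes 3 were called, with PF4 and PPBP at log2 fold changes of 4.43 and 4.00. Of 6 eosinophil and mast cell genes 4 were called, and PRG2, the eosinophil major basic protein, was at 527 ± 69.3 CPM in calvaria and 145 ± 36.9 CPM in tibia. Of 8 progenitor and dividing-cell genes 5 were called higher in calvaria and 1 lower, and MKI67 rose by 2.17 on the log2 scale (adjusted p = 8.23e-11, edgeR). Of 10 monocyte and macrophage genes 4 were called, with C1QB at a log2 fold change of 0.95. Their summed level overlapped between the sites, at 422 to 661 CPM in calvaria and 300 to 461 CPM in tibia. Of 8 T and NK cell genes 2 were called, both higher in calvaria. Of 6 B cell genes 3 were called, all higher in calvaria (among them VPREB1 and MS4A1, with log2 fold changes of 3.98 and 1.37), while the summed B cell level overlapped between the sites, at 312 to 391 CPM in calvaria and 336 to 361 CPM in tibia. In the other direction, the osteocyte genes SOST, MEPE and DKK1 were lower in macaque calvaria, with log2 fold changes of -1.53, -1.40 and -1.13, while CAPG was called higher (0.98) and DMP1 was not called (-0.21).

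In mouse, PRG2 and PRG3 were the eosinophil genes called higher in calvaria, PRG2 with a log2 fold change of 1.19 (SE 0.34, adjusted p = 0.169, edgeR). None of 12 erythroid genes was called in mouse (all 12 had a fold change above 0), and their summed level was 35101 and 75126 CPM in M4 and M8 against 37663 and 53545 CPM in M5 and M7, so that M8 was again the high library. The osteocyte genes DMP1, SOST, MEPE, PHEX and DKK1 were called lower in mouse calvaria. In rat the erythroid sum was 107237 CPM in calvaria and 60787 CPM in tibia. Medians of the T and NK cell genes were -0.33 on the log2 scale in mouse and -0.53 in rat. For monocyte and macrophage genes they were 0.18 in mouse and -0.05 in rat. The median of 13445 rat genes was -0.28.

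**Figure D5:**
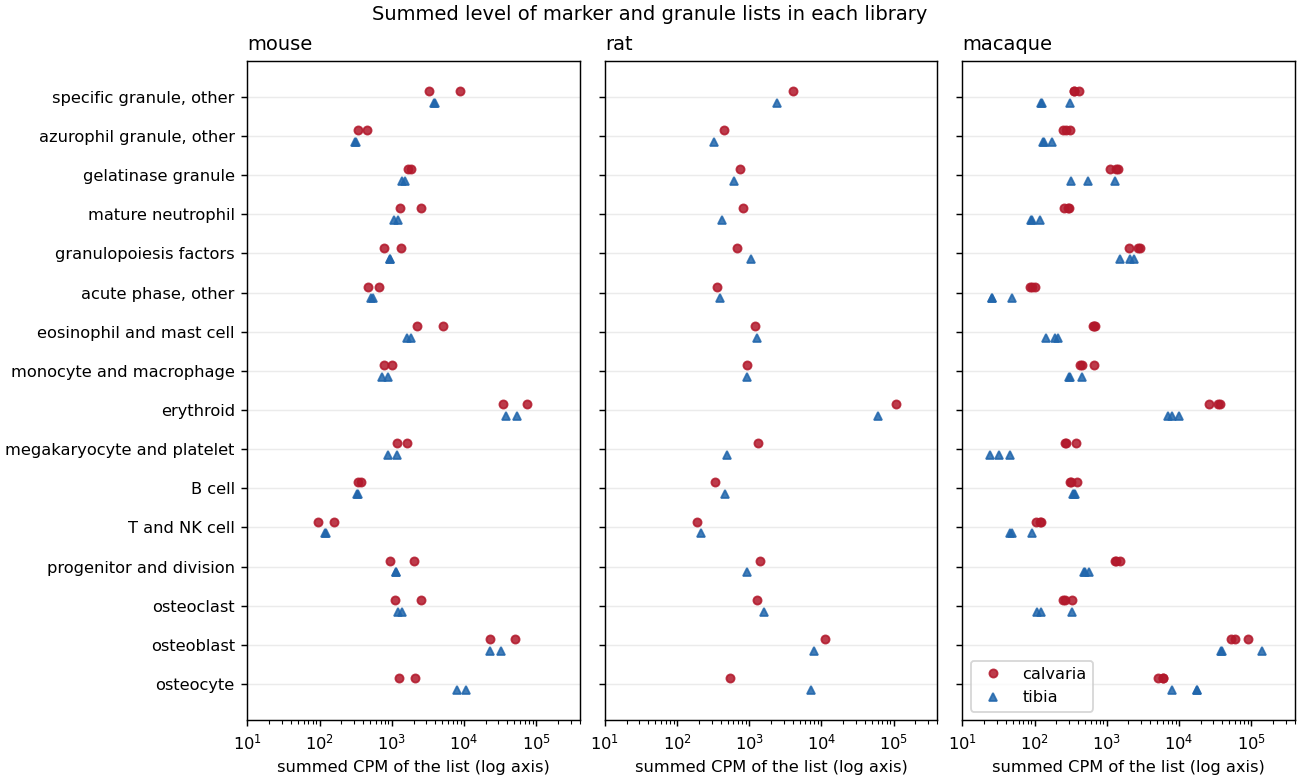
Summed CPM of each gene list (rows) in each library, on a log axis, for mouse, rat and macaque, with calvaria as circles and tibia as triangles. In macaque the erythroid, eosinophil, megakaryocyte and mature neutrophil sums of every calvaria library lie above those of every tibia library, and the osteocyte sums below; in mouse the 2 calvaria libraries lie on either side of the tibias for the other specific granule and erythroid lists.

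Finally, the macaque genes whose levels ran most like those of the members were listed by Pearson's r of log2(CPM + 1) over the 6 libraries, among 7535 genes with a mean of 10 CPM or more, as a description of points that share libraries and fall into 2 sites. Closest to ORM1 were PCNA, a clamp of DNA replication (r = 0.999), CMAS, PIM1, TREML1 and BIRC5 (0.993). PCNA was at 76.4, 91.5 and 76.2 CPM in calvaria G1, G3 and T1 and at 33.5, 34.2 and 34.9 CPM in tibia, and like ORM1 it was highest in G3 and did not stand out in T2. Closest to the mean of CAMP and LTF were RAVER1 (r = 0.999), the erythroid factor GATA1 (0.999), ALOX15, LOC693502 and UROS, an enzyme of heme synthesis (0.995), which, like LTF, were lowest in tibia G4.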

How the data were processed

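Reads were mapped and counted by the authors: the study's methods name HISAT2 and the submitters' processing notes name BWA 0.7.10-r789, and reads were counted with HTSeq-count on merged exons without strand, on mm10, rn6 and MacaM. The deposited tables hold a raw, unfiltered count per gene and library, beside a normalized signal of the authors that was not used here. For its own test the study dropped genes lacking reads in some sample. Rows naming no gene, between 0.00261% and 0.0663% of reads, were left out, and rows sharing a symbol, read in upper case, were summed. The macaque tables held 17111 LOC symbols, of which 10237 matched the RefSeq table of assembly T2T-MMU8v2.0 and 5939 received a unique name, used for names only.

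Each of the replicated species had its own fit in edgeR 4.0.16 under R 4.3.3 (TMM, quasi-likelihood test, Benjamini-Hochberg adjustment over all genes with a read in some library of the species). The standard error is the log2 fold change divided by the square root of F. Rat ratios used 1 added read, and counting intervals are exact. The species by site interaction used all 10 libraries of both. Python 3.11.15 with pandas 2.3.3, numpy 2.4.6 and matplotlib 3.10.9 made the summaries, and the steps were tested on simulated data. Each simulation held 200 changed genes, with a log2 change of 2, or 3 in rat. The steps recovered 152 in mouse, 197 in macaque, 186 in rat and 146 in the interaction. Of the genes picked, 14.1%, 12.1%, 71.6% and 19.3% were false, in the same order. Libraries are samples of pooled or single animals. The methods pair skull and long bone of the same animals or pools, but the pairs are not named, so a block was only an alternative, beside DESeq2 1.42.0, other scalings, filters and thresholds, and fits without each library.

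The members, the lists and the rule for named genes were chosen with earlier results of these data known. Named were all members, up to 4 called genes with the smallest p-values of each list in mouse and macaque (the 2 most abundant where none was called), and the 5 macaque genes most like ORM1 and like the secondary granule members. Some genes the rule names are not reported here. Named outside this rule, after their values were seen, were MMP9, CXCR1, CXCR2, GFI1, ALB, ABCA13, the osteocyte gene DMP1 in macaque, and Gm11505.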

Additional observations from a re-analysis of the deposited data

Results flagged for a closer look

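Genes of the fixed lists are given where the site difference itself differed between mouse and macaque in edgeR's interaction test at an adjusted p under 0.2, and species cannot be told apart there from lane, genome and annotation. The values are macaque minus mouse log2 fold changes of calvaria over tibia. Among neutrophil genes they were 1.68 for CST7, 1.63 for ITGAM, 1.53 for ANXA3, 2.17 for CD177 and 2.83 for ABCA13, and in mouse these 5 had fold changes between -0.17 and 0.43. CRISP3 had a fitted value of 7.50, but it had no reads in either mouse calvaria and 18 and 11 reads in the tibias, so this value rests on the fit's handling of zero counts. Platelet genes gave 3.60 for PF4, 3.84 for PPBP and 1.87 for ITGA2B. Erythroid genes gave 1.90 for ALAS2 and 2.05 for RHAG, and B cell genes 1.94 for MS4A1 and 3.20 for VPREB1. Dividing-cell genes gave 1.86 for BIRC5, 1.76 for CCNB1, 1.72 for MKI67 and 1.30 for TOP2A. The osteocyte genes DMP1 and PHEX gave 2.70 and 1.69, being lower in mouse calvaria (-2.89 and -1.45) and near 0 in macaque (-0.21 and 0.21).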

How the results depend on the processing

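In macaque, the 7 called members and 23 called neutrophil list genes stayed within 1.5 times of these counts in all 18 other settings, and all 151 other member values kept their direction and side of the threshold. The 3724 called macaque genes became 1978 at an adjusted p under 0.05 and 2301 (without G3) to 4998 (without T2) with 1 library left out. Library size alone moved the median of all macaque genes from -0.01 to -0.21.

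In mouse, the 510 called genes became 208 at an adjusted p under 0.05, 29 under edgeR's expression filter (2 higher in calvaria), 14 with a read required in every library and 32 on symbols shared by the 3 species. Requiring a read in every library is the study's own filter, applied here within the species. The 2 called members became 1 with DESeq2 or no filter, and 0 under the exact test, those 3 filters or an adjusted p under 0.05. The 1 called neutrophil gene became 2 under the exact test and 0 under those filters. The pairing of bones is not named, and with a replicate block for assumed pairs 295 genes and 0 members were called, and 0 members with the other assumed pairs. With 1 library left out, the lone library of a site being assumed to vary like the rest, genes called ran from 220 (without M5) to 7470 (without M4), 312 without M7 and 3816 without M8, members from 0 to 10, and neutrophil genes from 0 (without M5) to 26 (without M4). Without M8 the log2 fold changes reversed to -0.11 for ELANE, -0.38 for PRTN3, -0.051 for LTF and -0.22 for LCN2, and without M4 they were 1.18, 1.40, 0.82 and 1.02.

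In rat, the 1864 genes past a log2 ratio of 2 became 690 with 5 reads added and 6072 at a ratio of 1, which 1 member passed. Of 30 other rat member values 9 moved beyond their counting interval. The 20 interaction calls, whose alternatives were chosen after seeing the data, became 6 at an adjusted p under 0.05, and 6 (without M5 or M7) to 43 (without M8) with 1 library left out, 34 without T2 and 10 to 12 without G1, G2, G4 or T1. The causes of these changes were not tested. Rat, with 1 library a site, and mouse, with 2, limit what can be read from them.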

Other observations

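Of 9 T and NK cell genes tested in mouse, 1 was called, and it was lower in calvaria. CD3G, a chain of the T cell receptor complex, was at 9.34 ± 4.80 CPM in mouse calvaria and 29.7 ± 2.73 CPM in mouse tibia (SD, n = 2), a log2 fold change of -1.66 (adjusted p = 0.046, edgeR's quasi-likelihood test). The pre-B cell genes IGLL1 and VPREB3 were called higher in mouse calvaria, with log2 fold changes of 0.95 and 0.89 (adjusted p = 0.166 and 0.20, edgeR). In macaque NKG7, a gene of cytotoxic cells, was at 46.3 ± 11.2 CPM in calvaria and 16.0 ± 5.19 CPM in tibia (SD, n = 3), a log2 fold change of 1.53 (adjusted p = 2.01e-05, edgeR). LBP, which hands bacterial lipopolysaccharide to CD14, was the acute-phase gene called in mouse and was lower in calvaria, at 35.8 and 51.0 CPM in M4 and M8 and 117 and 93.0 CPM in M5 and M7 (log2 fold change -1.27, adjusted p = 0.050, edgeR).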
